A study of Danio rerio with 12 samples.

Results

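Macrophages and monocytes were read here through 9 listed genes: csf1ra, mpeg1.1, mfap4, marco, c1qa, c1qb, c1qc, lgals2a and slc7a7. These genes and the gene lists used below were chosen with earlier results of these data known. Counts and medians over them are therefore descriptions and not tests. A row carrying the symbol was found for 8 of the 9 genes among 14781 genes, and all 8 passed the filter on low counts. marco was not analysed here. The libraries came from whole kidneys of adult male EK zebrafish, 4 to 12 months old, and 3 libraries were made for each of 4 groups. The groups were homozygous cebpd mutants (cebpd KO), their wild types (cebpd WT), homozygous CEN mutants (CEN KO) and their wild types (CEN WT). Cebpd is a transcription factor of the C/EBP family, and CEN is an enhancer linked to the cebpd gene; the labels do not describe what either allele removes. Cardiomyocytes had been ablated in the fish of all 12 libraries, wild types included, after 0.5 to 0.7 µM tamoxifen for 17 h, and kidneys were taken at day 7, so that no uninjured kidney is among them. The labels name no transgene, and they do not say whether the replicates came from separate fish or pools, so each p-value is set against the spread of the libraries alone, which may be technical.

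The adult zebrafish kidney holds nephrons together with the blood-forming marrow, and macrophages and their precursors are part of that marrow. In vertebrates the receptor tyrosine kinase Csf1r receives the ligands Csf1 and Il34 and maintains macrophages, while the transcription factors Spi1 (PU.1) and Irf8 direct myeloid cells toward the macrophage fate. Mature macrophages engulf cells and microbes, make the complement starter C1q, and carry the pore-forming protein Mpeg1 (perforin-2) in their phagosomes. In zebrafish, mpeg1.1 and mfap4 promoters are in common use to mark macrophages, and csf1ra is also expressed in the yellow pigment cells called xanthophores.

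Between 15793475 and 18104535 reads were assigned to genes in each library, and 3 counts corresponded to between 0.157 and 0.199 CPM, which are counts relative to the TMM-scaled library size. The check on the labels gave 10.4, 4.03 and 12.9 CPM of cebpd in cebpd KO kidneys, against 316, 466 and 338 CPM in cebpd WT kidneys (log2 fold change -5.36 ± 0.38 SE, adjusted p = 9.43e-05). In CEN KO kidneys cebpd was at 67.8, 72.8 and 77.9 CPM, against 294, 333 and 212 CPM in CEN WT kidneys (-1.94 ± 0.32, adjusted p = 0.106). Both mutants thus lay below all of their wild types, although the CEN difference did not pass the test. Replicate 3 of cebpd KO had the lowest TMM scaling factor of the series, 0.835, in a range that ended at 1.102. Unless another tool is named, fold changes are log2 values from edgeR's quasi-likelihood test over all 12 libraries, ± is the SE of a fold change or the SD of a group of 3, and p-values were adjusted over 11840 genes by the Benjamini-Hochberg method.

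In cebpd KO kidneys 7 of the 8 macrophage genes lay above cebpd WT kidneys and slc7a7 lay below, but none passed an adjusted p of 0.05, a threshold that 0.0845% of all tested genes passed. Each of these 7 genes had its lowest group mean in cebpd WT kidneys. Their mean log2 CPM was 5.15 ± 0.24 there, against 5.61 ± 0.17 in cebpd KO, 5.48 ± 0.20 in CEN KO and 5.53 ± 0.27 in CEN WT kidneys. The share of all genes lowest in cebpd WT was not counted. By mean log2 CPM, the pan-leukocyte, T and NK, B cell, and stem and progenitor lists were also lowest in cebpd WT kidneys. The neutrophil, erythroid and thrombocyte lists were lowest in CEN KO kidneys. In the cebpd pair the median of the 8 log2 fold changes was 0.47, beside -0.01 for all tested genes, of which 48.6% lay above 0. At an unadjusted p under 0.05 there were 3 of the 8 genes (mfap4, lgals2a and slc7a7), beside 13.4% of all genes. DESeq2 called 2 of the 8 (lgals2a higher and slc7a7 lower), beside 3.46% of all genes, and limma-voom called 0, beside 0.0845%. In CEN KO kidneys 3 of the 8 lay above CEN WT kidneys, beside 50.6% of all genes, the median was -0.08 beside 0.00 for all genes, and again none passed, beside 0.00845% of all genes. There, slc7a7 alone had an unadjusted p under 0.05, beside 9.86% of all genes, and it was also the 1 gene of the 8 that DESeq2 called, beside 1.16% of all genes, while limma-voom called 0, beside 0.0422%. Without replicate 1 of cebpd WT, in which 6 of the 8 genes were at their lowest for that group, the median of the cebpd comparison was 0.30.

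**Figure D1:**
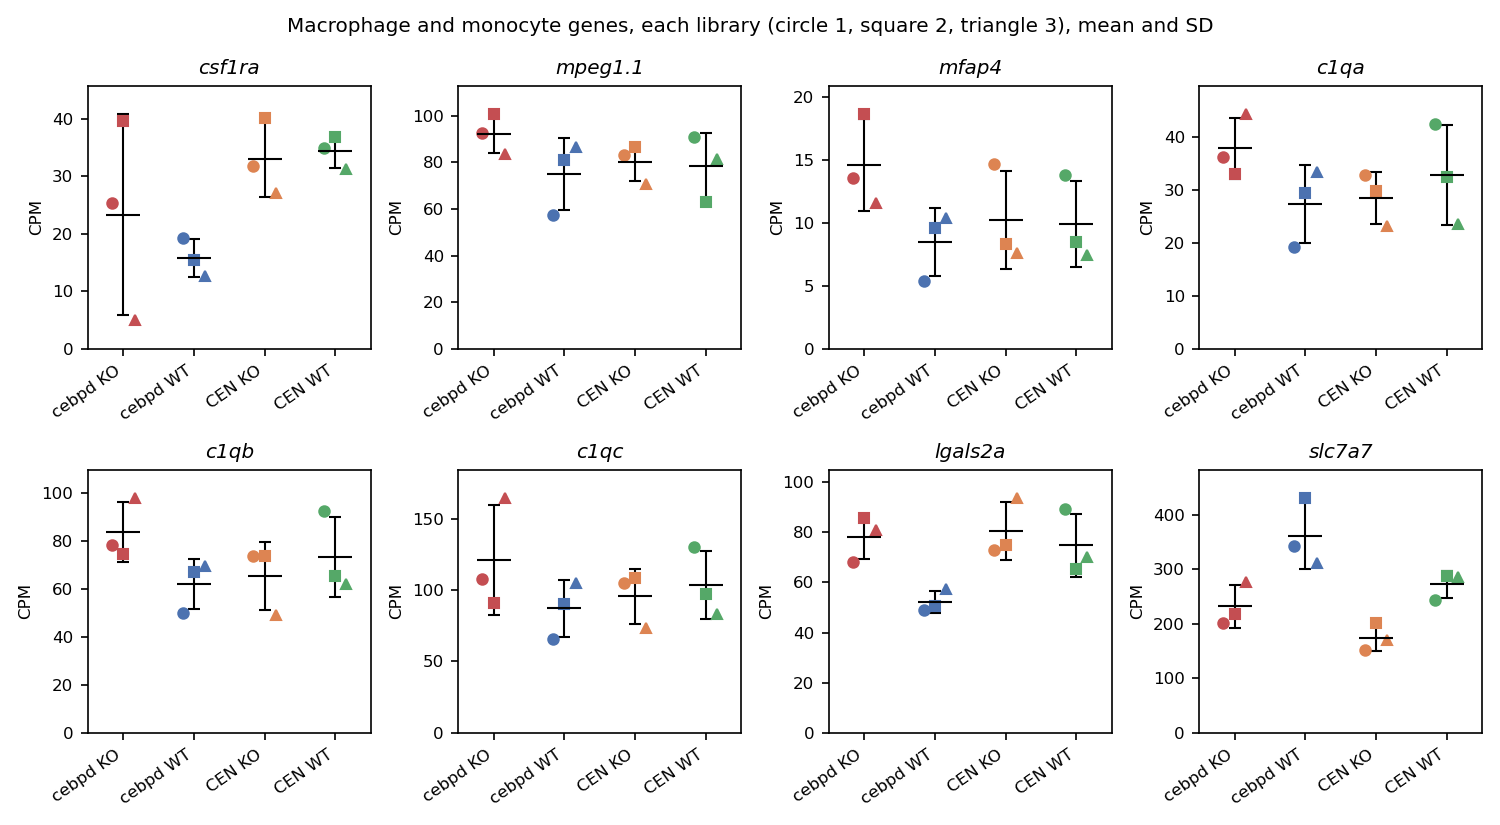
Normalised expression (CPM, linear axis from 0) of the 8 macrophage and monocyte genes in each of the 12 libraries, with the mean and SD of each group of 3. slc7a7 lies lower in both mutants than in their wild types without overlap, lgals2a lies lower in cebpd WT than in every other library, and csf1ra is at 4.91 CPM in replicate 3 of cebpd KO. Of all tested genes, 8.25% were lower without overlap in the cebpd pair and 9.77% in the CEN pair. The share with the lgals2a pattern was not counted.

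The receptor gene csf1ra gave 25.4, 39.7 and 4.91 CPM in cebpd KO kidneys, against 19.2, 15.4 and 12.6 CPM in cebpd WT kidneys. It gave 31.7, 40.2 and 27.1 CPM in CEN KO kidneys, against 34.9, 36.8 and 31.3 CPM in CEN WT kidneys. The cebpd KO libraries held both the second highest and the lowest value of the 12, so the groups overlapped. The log2 fold change was 0.57 ± 0.49 for cebpd KO (adjusted p = 0.692) and -0.06 ± 0.49 for CEN KO (adjusted p = 0.989). The first of these values depended on which library of cebpd KO was left out. Without replicate 3 the log2 fold change was 1.07 and passed (adjusted p = 0.047), while without replicate 2 it was -0.06. The alternatives gave adjusted p-values of 0.047 to 0.982 for it.

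In replicate 3 of cebpd KO, csf1ra lay 2.67 log2 units below the mean of the other replicates of its group, and 1.24% of all tested genes lay as far below or farther in that library. No other gene of the 8 lay as far down there. mfap4 and mpeg1.1 were at the lowest of their group in that library, at -0.45 and -0.20 log2 units from its other replicates. There, 24.7% of all tested genes lay as far below as mfap4 or farther, and 34.5% as far as mpeg1.1. c1qc, at 164.5 CPM, was at its highest value in the series in that library. Among 9004 genes with a mean of at least 5 CPM, those whose pattern over the 12 libraries was most like that of csf1ra were znf362b, faim2a and ambra1b, at root mean square distances of 0.19, 0.20 and 0.21 log2 units. All 3 were low in the same library, where znf362b had 1.73, faim2a 1.39 and ambra1b 2.59 CPM. They were chosen for nearness to csf1ra over these same libraries, so this drop follows from the choice and is not a separate result. Of 7 xanthophore genes, a list picked after the data had been seen, gch2 stayed between 1.46 and 3.12 CPM over the series, pax7a and pax7b were at 0.33 CPM or less, and aox5 was at 1.39 CPM or less. slc2a15b ran from 0.13 CPM (2 counts), its lowest value, in replicate 3 of cebpd KO to 3.11 CPM in replicate 1 of CEN KO. Like csf1ra it was higher in CEN WT than in cebpd WT without overlap, as were 22.8% of all genes (1.65 ± 0.78, adjusted p = 0.141). Each cebpd WT library, however, held only 3 counts of it. aox5 went the other way without overlap, as did 23.6% of all genes (-1.90 ± 0.67, adjusted p = 0.0584). Of the 5 xanthophore genes tested between the wild types, 3 were higher and 2 lower in CEN WT. scarb1 ran from 11.6 to 59.5 CPM and mycla from 18.1 to 40.4 CPM. Of 4 tested genes of melanophores, another type of pigment cell, 3 were higher in CEN WT than in cebpd WT and 1 was lower. That list was likewise added later. edgeR called 2 of the 4 higher, beside 10.9% of all genes. They were tyrp1b (1.73 ± 0.33, adjusted p = 0.00379) and pmela (1.16 ± 0.32, adjusted p = 0.0215). The part of pigment cells in the csf1ra levels was not tested.

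Of the ligands of the receptor, csf1b had 77.8, 86.6 and 70.5 CPM in cebpd KO kidneys, against 53.9, 78.6 and 93.5 CPM in cebpd WT kidneys, and the groups overlapped (0.06 ± 0.19, adjusted p = 0.938). In the CEN pair its log2 fold change was 0.29 ± 0.19 (adjusted p = 0.672). csf1a stayed under 1 CPM in every library, and il34 stayed at 0.18 CPM or less and was not tested. The second receptor gene, csf1rb, was not analysed here.

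**Figure D2:**
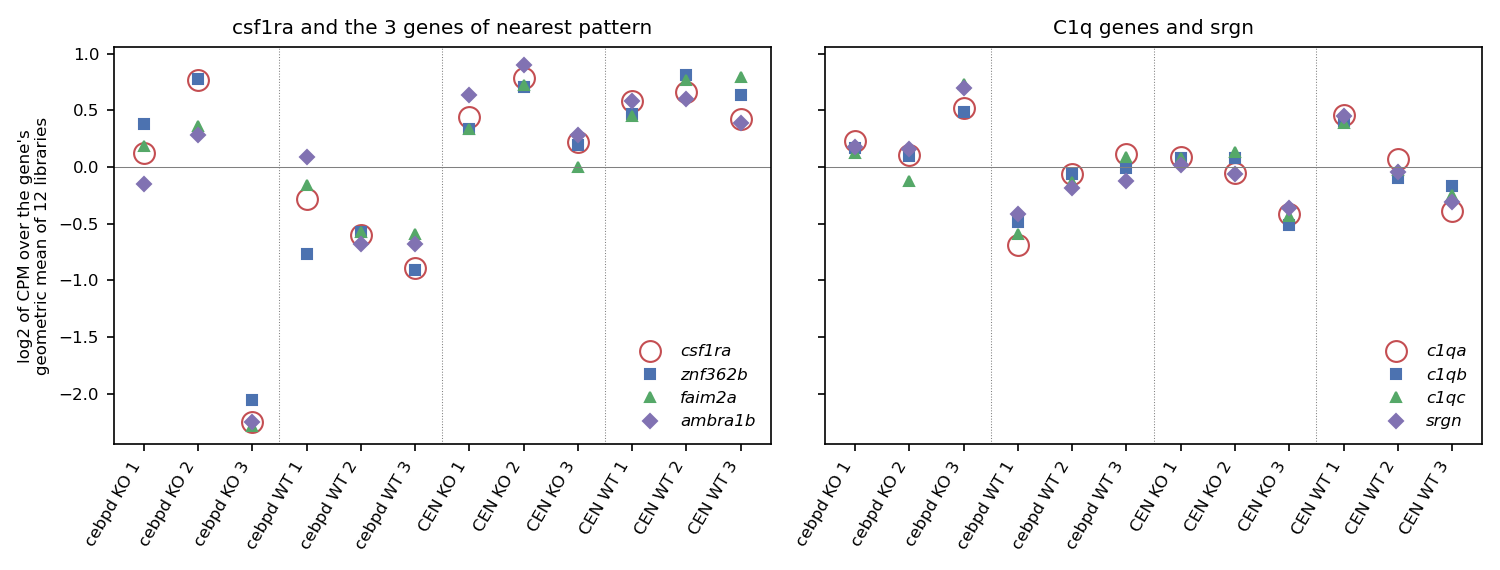
Log2 of CPM over each gene's geometric mean of the 12 libraries, library by library, for csf1ra with the 3 genes of nearest pattern (left) and for the 3 C1q genes with srgn (right). The left set drops in replicate 3 of cebpd KO, the library in which the right set reaches its highest values. The genes beside csf1ra, and srgn, were chosen for nearness over these same libraries, so likeness within a set follows from the choice.

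The phagosome gene mpeg1.1 gave 92.5, 101 and 83.8 CPM in cebpd KO kidneys, against 57.3, 81.2 and 86.8 CPM in cebpd WT kidneys. It gave 83.1, 86.8 and 70.9 CPM in CEN KO kidneys, against 90.9, 62.8 and 81.3 CPM in CEN WT kidneys. The groups overlapped in both pairs, at 0.30 ± 0.18 for cebpd KO (adjusted p = 0.522) and 0.04 ± 0.18 for CEN KO (adjusted p = 0.982). With group means within 1.23-fold of each other, mpeg1.1 was the least variable of the 8 genes across groups. Its relative mpeg1.2 ran from 143 to 515 CPM in cebpd WT kidneys alone, and mpeg1.3 had a count in 1 library only. Reads shared between these copies could have been split or dropped in counting, so values of single copies are uncertain.

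mfap4, which encodes a microfibril-associated fibrinogen-domain protein, gave 13.5, 18.7 and 11.6 CPM in cebpd KO kidneys, against 5.40, 9.57 and 10.4 CPM in cebpd WT kidneys. All 3 cebpd KO libraries were above all 3 cebpd WT libraries, by 0.79 ± 0.34 (adjusted p = 0.336), the largest positive log2 fold change among the 8 genes. Non-overlap in this direction was seen for 7.8% of all tested genes. CEN KO kidneys had 14.7, 8.34 and 7.58 CPM, against 13.8, 8.47 and 7.46 CPM in CEN WT kidneys. Within each of these groups replicate 1 stood above the other libraries, and the difference was 0.04 ± 0.34 (adjusted p = 0.989). The copy zgc:173915, named mfap4.2 in the newer RefSeq table, had 25.3, 14.9 and 6.11 CPM in cebpd KO kidneys, against 4.89, 6.91 and 6.82 CPM in cebpd WT kidneys (1.32 ± 0.44, adjusted p = 0.211), with overlap through replicate 3.

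The 3 genes c1qa, c1qb and c1qc encode the chains of C1q, the recognition part of the first complement component, and all 3 lie on chromosome 21 in the RefSeq table of a newer assembly. c1qa gave 36.2, 33.1 and 44.3 CPM in cebpd KO kidneys, against 19.2, 29.5 and 33.4 CPM in cebpd WT kidneys. c1qb gave 78.2, 74.6 and 97.8 CPM in cebpd KO kidneys, against 49.9, 66.8 and 69.4 CPM in cebpd WT kidneys. c1qb was the 1 chain whose cebpd groups did not overlap, as was the case in this direction for 7.8% of all tested genes. Replicate 1 of cebpd WT was the lowest library of its group for each chain. c1qc gave 108, 90.9 and 164.5 CPM in cebpd KO kidneys, against 65.8, 90.5 and 105 CPM in cebpd WT kidneys. The log2 fold changes of cebpd KO were 0.47 ± 0.25, 0.43 ± 0.21 and 0.47 ± 0.26 for c1qa, c1qb and c1qc (adjusted p = 0.455, 0.410 and 0.471).

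In the CEN pair the C1q genes lay slightly lower in the mutants, with overlap for each chain. c1qa had 32.7, 29.7 and 23.2 CPM in CEN KO kidneys, against 42.5, 32.4 and 23.6 CPM in CEN WT kidneys. c1qb had 73.6, 73.6 and 48.9 CPM in CEN KO kidneys, against 92.3, 65.2 and 62.1 CPM in CEN WT kidneys. The differences were -0.20 ± 0.25, -0.16 ± 0.21 and -0.11 ± 0.26 for c1qa, c1qb and c1qc, and the smallest adjusted p was 0.860. The cebpd effect minus the CEN effect was 0.67 ± 0.35, 0.59 ± 0.30 and 0.59 ± 0.36, and none of the 8 genes passed for this difference, for which 0.0422% of all tested genes passed. Leaving out replicate 1 of cebpd WT took the cebpd KO value of c1qa down to 0.26.

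The C1q genes followed each other more closely than any other pair of the 8. Their pairwise root mean square distances over the 12 libraries were 0.12 (c1qa and c1qb), 0.13 (c1qa and c1qc) and 0.11 (c1qb and c1qc) log2 units, while csf1ra lay between 0.82 and 1.096 log2 units from the other 7 genes. The one other gene among the 3 nearest to each chain was srgn, which encodes the granule proteoglycan serglycin and belongs to the neutrophil list used here. Being chosen for this nearness, srgn lay above 0 as the chains did, at 0.61 ± 0.21 for cebpd KO (adjusted p = 0.227). Of the proteases that act with C1q, c1s had 17.0, 18.4 and 17.4 CPM in cebpd KO kidneys, against 11.9, 14.1 and 16.1 CPM in cebpd WT kidneys (0.33 ± 0.20, adjusted p = 0.544). In CEN KO kidneys c1s had a log2 fold change of -0.46 ± 0.20 (adjusted p = 0.491), and c1r was at or near 0 in 11 libraries, was at 1.22 CPM in replicate 2 of CEN KO and was not tested.

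**Figure D3:**
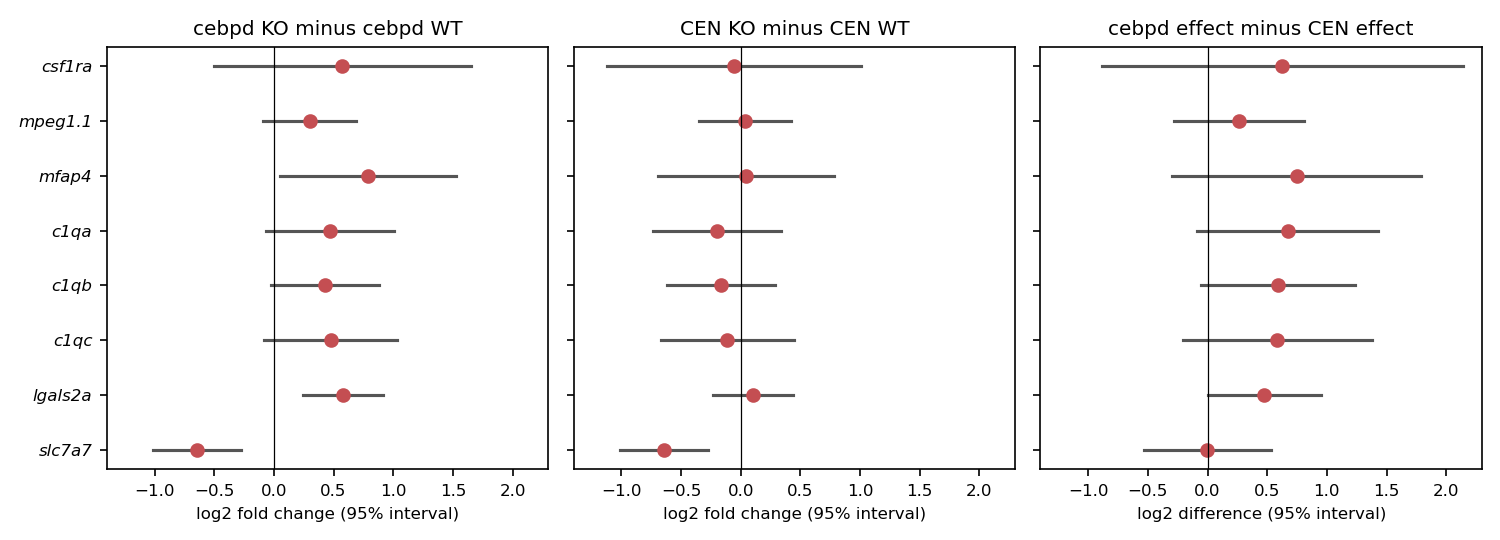
Log2 fold changes with 95% intervals of the 8 genes in cebpd KO against cebpd WT (left), in CEN KO against CEN WT (middle) and the cebpd effect minus the CEN effect (right). slc7a7 sits at the same negative value in both mutants, and the other 7 genes are above 0 in the left panel and spread around 0 in the middle one.

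lgals2a, a galectin gene whose product belongs to a family of galactose-binding lectins, gave 68.2, 85.6 and 81.0 CPM in cebpd KO kidneys, against 48.9, 50.8 and 57.3 CPM in cebpd WT kidneys. The groups did not overlap, as was the case in this direction for 7.8% of all tested genes. The log2 fold change was 0.58 ± 0.15, with an adjusted p of 0.127 in edgeR and 0.0239 in DESeq2, in a range of 0.0239 to 0.416 over the alternatives. lgals2a gave 72.9, 74.8 and 93.7 CPM in CEN KO kidneys, against 89.2, 65.2 and 70.1 CPM in CEN WT kidneys (0.10 ± 0.15, adjusted p = 0.895). The cebpd effect minus the CEN effect was 0.48 ± 0.22 (adjusted p = 0.385). The 3 cebpd WT libraries lay below all 9 others, and the share of all genes with that pattern was not counted. Between the wild types alone, 22.8% of all tested genes were higher in CEN WT without overlap. cebpd WT also had the lowest group mean for csf1ra, mpeg1.1, mfap4 and the C1q genes, there with overlap.

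slc7a7 encodes a light chain (y+LAT1) of the cationic amino acid exchanger, which in mammals serves the basolateral side of kidney and gut epithelium as well as macrophages. It gave 201, 218 and 277.5 CPM in cebpd KO kidneys, against 343, 431 and 313 CPM in cebpd WT kidneys. It gave 152, 201 and 171 CPM in CEN KO kidneys, against 244, 287 and 287 CPM in CEN WT kidneys. Mutant and wild-type libraries did not overlap in either pair, with the mutants below, as was the case for 8.25% of all genes in the cebpd pair and 9.77% in the CEN pair. Both log2 fold changes were -0.64 ± 0.17, with adjusted p = 0.126 for cebpd KO and 0.236 for CEN KO in edgeR, and 0.0185 and 0.0427 in DESeq2. Over the alternatives the adjusted p ran from 0.0185 to 0.366 for cebpd KO and from 0.0427 to 0.734 for CEN KO. The difference between these effects was -0.00 ± 0.24, with a 95% interval of -0.53 to 0.53.

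The mean of both mutant effects, a comparison added after slc7a7 had been seen to be lower in both, was -0.64 ± 0.12 for this gene (adjusted p = 0.0935), and 0.0591% of all genes passed there. DESeq2 called it (adjusted p = 0.000395), beside 1.49% of all genes, and so did edgeR without replicate 3 of cebpd KO (adjusted p = 0.0462), in a range of 0.000395 to 0.264 over the alternatives. As slc7a7 itself prompted this comparison, these p-values restate both of its effects and are not a separate result. The genes of nearest pattern were npr3, a natriuretic peptide clearance receptor gene, qpctla and vil1, which encodes the microvillus protein villin, at 0.18, 0.19 and 0.19 log2 units. vil1 had 64.0, 71.0 and 92.9 CPM in cebpd KO kidneys, against 115, 122 and 104 CPM in cebpd WT kidneys (-0.58 ± 0.18, adjusted p = 0.171). In the CEN pair it had 55.6, 72.7 and 76.8 CPM in CEN KO kidneys, against 98.2, 102 and 130 CPM in CEN WT kidneys (-0.69 ± 0.18, adjusted p = 0.229). It was lower without overlap in both pairs, as were 8.25% of all genes in the cebpd pair and 9.77% in the CEN pair. As vil1 was chosen for its likeness to slc7a7 over these libraries, its lower level in both mutants follows from the choice.

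Most proximal tubule genes lay lower, as slc7a7 did, in cebpd KO kidneys, and most lay higher in CEN KO kidneys. Of the 14 listed, 12 were below 0 in cebpd KO (median -0.29, summed level 7210 to 8654 CPM in cebpd KO kidneys against 8687 to 13130 CPM in cebpd WT kidneys). In CEN KO 11 of the 14 were above 0 (median 0.23). edgeR called 0 of the 14 in either pair. In the cebpd pair 2 lower genes and 1 higher had an unadjusted p under 0.05, beside 13.4% of all genes, and 2 higher genes did in the CEN pair, beside 9.86%. DESeq2 called 2 lower and 1 higher in the cebpd pair and 1 higher in the CEN pair, beside 3.46% and 1.16% of all genes, and limma-voom 0. The peptide transporter gene slc15a2 went against the list, with 30.0, 40.5 and 26.9 CPM in cebpd KO kidneys, against 16.9, 15.8 and 17.3 CPM in cebpd WT kidneys (0.96 ± 0.19, adjusted p = 0.0728). Within libraries, slc7a7 minus the mean of the tubule list was -0.37 ± 0.39 log2 units in cebpd KO kidneys and 0.04 ± 0.06 in cebpd WT kidneys, and it was -1.23 ± 0.15 in CEN KO kidneys and -0.28 ± 0.17 in CEN WT kidneys. The part that tubule RNA had in the lower slc7a7 level of cebpd KO was not tested.

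The partner chains of the slc7a7 product are encoded by slc3a2a and slc3a2b. slc3a2a had 424, 416 and 658 CPM in cebpd KO kidneys, against 465, 582 and 502 CPM in cebpd WT kidneys (-0.05 ± 0.21, adjusted p = 0.959). slc3a2b differed by -0.65 ± 0.32 in the cebpd pair (adjusted p = 0.419) and by 0.03 ± 0.32 in the CEN pair. The neutral amino acid exchanger gene slc7a8a had a log2 fold change of -0.47 ± 0.18 in cebpd KO (adjusted p = 0.275) and of 0.53 ± 0.18 in CEN KO (adjusted p = 0.337). Of the 7 tested genes of the transport list, 1 was above 0 in cebpd KO (median -0.47) and 6 in CEN KO (median 0.38), and none passed by edgeR, DESeq2 or limma-voom, with 1 at an unadjusted p under 0.05 in each pair, beside 13.4% and 9.86% of all genes.

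Levels also differed between the wild types of the 2 experiments, where 25% of all tested genes passed. Between CEN WT and cebpd WT kidneys, 1 of the 8 genes passed: lgals2a was 1.43-fold higher in CEN WT (0.52 ± 0.15, adjusted p = 0.0301), beside 10.9% of all genes called higher. The call was lost without replicate 1 of cebpd WT (adjusted p = 0.0875), without replicate 2 of cebpd WT (0.0813) and without replicate 1 of CEN WT (0.123), and the range over the alternatives was 0.0111 to 0.123. csf1ra was higher in CEN WT without overlap, as were 22.8% of all genes (1.13 ± 0.50, adjusted p = 0.118), and it passed when the 6 wild-type libraries were fitted alone (adjusted p = 0.00254) and when replicate 3 of cebpd KO was left out of the fit (0.00257), in a range of 0.00254 to 0.277 over the alternatives. slc7a7 was lower in CEN WT without overlap, as were 23.6% of all genes (-0.41 ± 0.17, adjusted p = 0.0976). The remaining 5 genes differed by 0.06 to 0.26 log2 units and overlapped. This comparison shares the cebpd WT libraries with the cebpd knockout comparison, and line and experiment cannot be told apart in it.

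Most of the transcription factor genes that stand above these markers in the myeloid line likewise lay higher in cebpd KO than in cebpd WT kidneys, though none passed in edgeR. irf8, a determinant of the macrophage fate in zebrafish, had 81.2, 88.1 and 102 CPM in cebpd KO kidneys, against 42.4, 68.8 and 66.6 CPM in cebpd WT kidneys (0.61 ± 0.18, adjusted p = 0.165). spi1b, one of the zebrafish PU.1 genes, had 241, 300 and 332 CPM in cebpd KO kidneys, against 153, 233 and 189 CPM in cebpd WT kidneys (0.60 ± 0.19, adjusted p = 0.191). Neither gene overlapped between these groups, as was the case in this direction for 7.8% of all tested genes. In the CEN pair both overlapped, at 0.03 ± 0.18 for irf8 and -0.17 ± 0.19 for spi1b. irf8 had 86.5, 91.5 and 83.5 CPM in CEN KO and 98.9, 73.4 and 84.3 CPM in CEN WT kidneys, all above cebpd WT and near cebpd KO. spi1b had 220.9, 192.5 and 154.9 CPM in CEN KO and 234, 180.1 and 224.5 CPM in CEN WT kidneys, all below cebpd KO. Between the wild types alone, 22.8% of all tested genes were higher in CEN WT without overlap. The shares of all genes with the full irf8 or spi1b pattern were not counted. The second PU.1 gene spi1a had 0.49 ± 0.19 in cebpd KO (adjusted p = 0.265), tfec of the MiT factor family had 0.42 ± 0.15 (adjusted p = 0.227), and cebpb, a relative of cebpd, had 0.10 ± 0.24 (adjusted p = 0.916). In all, 9 of the 10 factors listed were above 0 in cebpd KO (median 0.46) and 6 in CEN KO (median 0.05). None passed in edgeR, with 5 at an unadjusted p under 0.05 in cebpd KO and 0 in CEN KO, beside 13.4% and 9.86% of all genes. DESeq2 called 1 in cebpd KO and 0 in CEN KO, beside 3.46% and 1.16% of all genes, and limma-voom 0 in both.

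**Figure D4:**
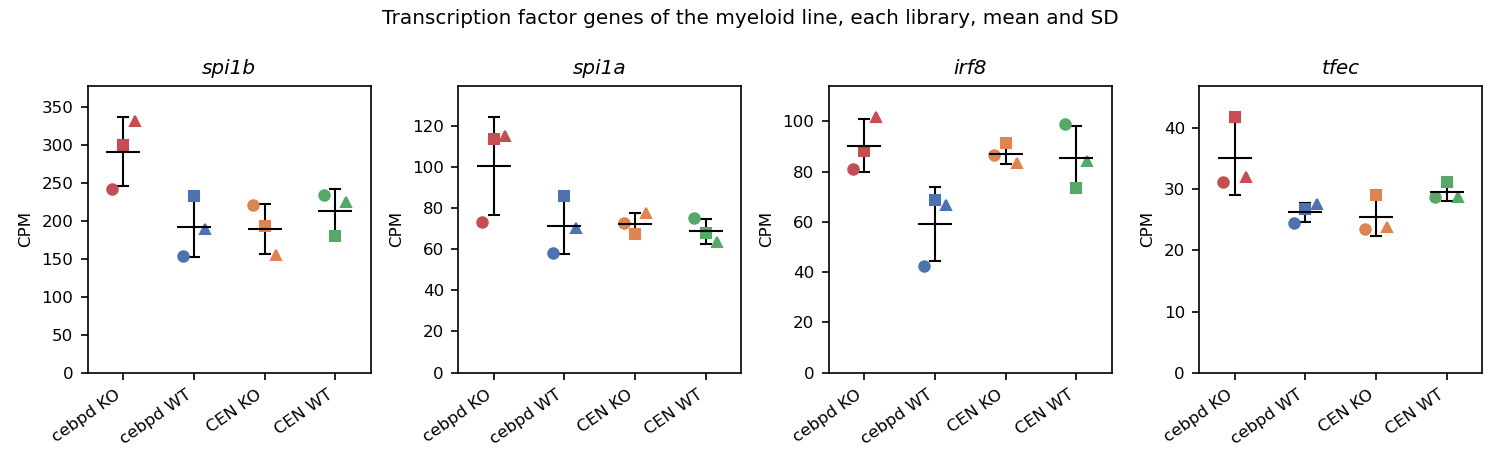
Normalised expression (CPM, linear axis from 0) of the transcription factor genes spi1b, spi1a, irf8 and tfec in each library, with the mean and SD of each group of 3. In cebpd KO all 3 libraries lie above cebpd WT for spi1b, irf8 and tfec, and no such gap is seen between CEN KO and CEN WT. Of all 10 factors listed, 4 lay above without overlap in the cebpd pair, beside 7.8% of all tested genes. Among those not plotted, mafba (-0.07 ± 0.18) and nr1h3 (0.15 ± 0.18) overlapped in that pair.

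Further genes were taken from lists of receptors, lysosome and lipid genes, complement genes, family copies and inflammatory genes. With the factors and ligands they made 65 tested genes. They were listed for links to macrophages, but which cells of the whole kidney made their RNA was not tested. In cebpd KO 52 of the 65 were above 0 (median 0.29), and 34 of the 65 in CEN KO (median 0.02). edgeR called 0 in either pair, with 14 and 9 at an unadjusted p under 0.05, beside 13.4% and 9.86% of all genes. DESeq2 called 3 in the cebpd pair and 1 in the CEN pair, beside 3.46% and 1.16% of all genes, and limma-voom 0. Without replicate 1 of cebpd WT the cebpd median was 0.16 over 66 tested genes.

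Among the lysosome and lipid genes 15 of 16 were above 0 in cebpd KO (median 0.34), with 4 at an unadjusted p under 0.05 and 1 called by DESeq2, beside 13.4% and 3.46% of all genes. plin2, which coats lipid droplets, had 19.5, 18.3 and 22.7 CPM in cebpd KO kidneys, against 12.8, 13.4 and 15.0 CPM in cebpd WT kidneys (0.55 ± 0.16, adjusted p = 0.161). In the CEN pair plin2 had 0.42 ± 0.16 (adjusted p = 0.402). lgmn, the gene of the lysosomal protease legumain, had 0.22 ± 0.18 in cebpd KO and -0.50 ± 0.18 in CEN KO (adjusted p = 0.376), and the apolipoprotein gene apoc1l had 0.46 ± 0.55 in cebpd KO and 2.15 ± 0.57 in CEN KO (adjusted p = 0.236). ctsl.1 was at 1.53 CPM or less in cebpd KO and cebpd WT kidneys (1.47 ± 0.38, adjusted p = 0.120).

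The scavenger receptor genes were less uniform, with 6 of 8 above 0 in cebpd KO (median 0.20) and 4 of 8 in CEN KO (median 0.00). stab1, a stabilin that takes up modified lipoproteins and is made by endothelium as well as macrophages, had 364, 380 and 234 CPM in cebpd KO kidneys, against 247, 225 and 236 CPM in cebpd WT kidneys (0.47 ± 0.20, adjusted p = 0.338). stab2, the endothelial stabilin, had 206, 158 and 86.9 CPM in CEN KO kidneys, against 446, 958 and 146 CPM in CEN WT kidneys (-1.78 ± 0.52, adjusted p = 0.256). The wild-type values of stab2 spanned a wide range and overlapped the mutants. timd4, a receptor for phosphatidylserine on dying cells, stayed under 1 CPM.

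Of 18 tested inflammatory genes 12 were above 0 in cebpd KO (median 0.14) and 8 in CEN KO (median -0.09). arg2, an arginase gene, was lower, with 51.9, 96.4 and 113 CPM in cebpd KO kidneys, against 170, 210 and 171 CPM in cebpd WT kidneys (-1.08 ± 0.26, adjusted p = 0.100). In the CEN pair arg2 had 0.28 ± 0.26 (adjusted p = 0.787). nos2a, a nitric oxide synthase gene of low level here, was lower without overlap in both mutants, at -0.71 ± 0.29 in cebpd KO (adjusted p = 0.312) and -0.77 ± 0.30 in CEN KO (adjusted p = 0.418). cxcr3.2, a chemokine receptor gene used by zebrafish macrophages, had 0.44 ± 0.17 in cebpd KO (adjusted p = 0.285), and tgfb1a had -0.53 ± 0.24 in CEN KO (adjusted p = 0.492). Among family copies lgals9l1 had 0.45 ± 0.21 in cebpd KO (adjusted p = 0.381), lgals3bpb 0.48 ± 0.44 (adjusted p = 0.709), and zgc:92326 -0.11 ± 0.13 (adjusted p = 0.773). calr3b, a calreticulin gene, was lower without overlap in both mutants, at -0.56 ± 0.31 in cebpd KO (adjusted p = 0.481) and -0.97 ± 0.31 in CEN KO (adjusted p = 0.296). Beside nos2a and calr3b, 8.25% of all tested genes were lower without overlap in the cebpd pair and 9.77% in the CEN pair.

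The genes of leukocytes in general, and of neutrophils, were mostly higher in cebpd KO than in cebpd WT kidneys. Their medians were near or above the 0.47 of the 8 macrophage genes and above the 0.29 of the 65 further listed genes. All 11 tested pan-leukocyte genes were above 0 (median 0.49), beside 48.6% of all genes, and 9 lay above without overlap, beside 7.8%. Their summed level was 2955 to 3930 CPM in cebpd KO kidneys, against 2064 to 2764 CPM in cebpd WT kidneys, and 2342 to 2760 CPM in CEN KO kidneys, against 2542 to 3308 CPM in CEN WT kidneys. Of 19 tested neutrophil genes 18 were above 0 (median 0.61), beside the same 48.6%, and 14 lay above without overlap, beside 7.8% of all genes, with summed levels of 7617 to 9292 CPM in cebpd KO kidneys, against 4310 to 5769 CPM in cebpd WT kidneys. edgeR called 0 of either list, with 9 and 15 at an unadjusted p under 0.05, beside 13.4% of all genes. DESeq2 called 4 and 8, all higher, beside 3.46% of all genes, and limma-voom 0. In CEN KO the medians were -0.12 for the pan-leukocyte genes and -0.06 for the neutrophil genes. None was called there by edgeR, DESeq2 or limma-voom, beside 0.00845%, 1.16% and 0.0422% of all genes. At an unadjusted p under 0.05 there were 0 of either list, beside 9.86% of all genes.

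lcp1, the leukocyte actin-bundling gene, had 635, 1003 and 880 CPM in cebpd KO kidneys, against 473, 554 and 538 CPM in cebpd WT kidneys (0.69 ± 0.18, adjusted p = 0.126). cpa5, a carboxypeptidase gene of the neutrophil list, had 1.14 ± 0.25 (adjusted p = 0.0849). Lymphocyte medians were 0.30 for 11 T and NK genes and 0.50 for 5 B cell genes in cebpd KO. The medians of the other marrow lists in cebpd KO were 0.15 for 8 stem and progenitor genes, 0.05 for 7 thrombocyte genes and -0.11 for 10 erythroid genes, and that of 9 distal tubule genes was -0.16.

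Within libraries the macrophage genes were set against the pan-leukocyte genes. The mean log2 CPM of the 7 genes without slc7a7, minus that of the pan-leukocyte list, was -1.25 ± 0.27 in cebpd KO kidneys and -1.23 ± 0.11 in cebpd WT kidneys, and -1.003 ± 0.07 in CEN KO kidneys and -1.09 ± 0.15 in CEN WT kidneys. For the C1q genes the same value was -0.69 ± 0.27 in cebpd KO kidneys and -0.67 ± 0.18 in cebpd WT kidneys, and -0.69 ± 0.18 in CEN KO kidneys and -0.67 ± 0.24 in CEN WT kidneys. Against the neutrophil list the 7 genes were at -1.67 ± 0.12 in cebpd KO kidneys and -1.53 ± 0.15 in cebpd WT kidneys. The libraries of each mutant and its wild type overlapped in all of these ratios, and over the 12 libraries the ratio of the 7 genes to the pan-leukocyte list ran from -1.55 to -0.95. The ratio of csf1ra alone ran from -4.66 in replicate 3 of cebpd KO to -1.19 in replicate 2 of CEN KO, with -2.75 ± 1.66 in cebpd KO kidneys and -2.41 ± 0.50 in cebpd WT kidneys, and -1.45 ± 0.23 in CEN KO kidneys and -1.51 ± 0.20 in CEN WT kidneys. In whole kidney RNA, more cells of a type and more RNA per cell cannot be told apart.

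**Figure D5:**
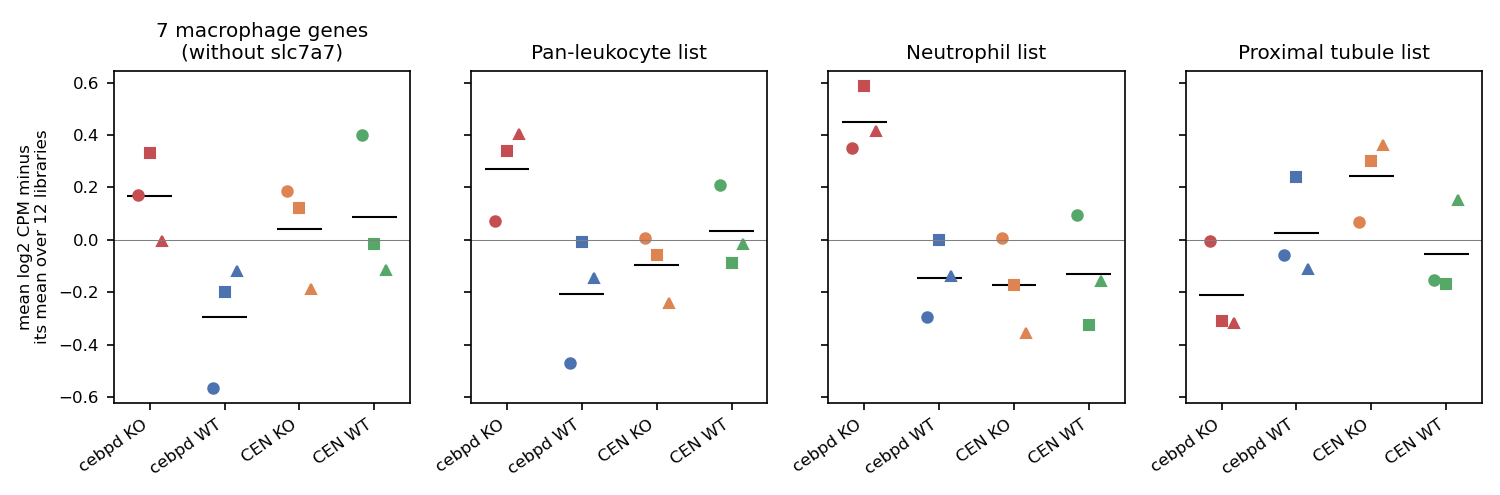
Mean log2 CPM of 7 macrophage genes, of the pan-leukocyte, neutrophil and proximal tubule lists in each library, minus its mean over the 12 libraries, with the group mean as a line. In the first 3 sets all cebpd KO libraries lie above all cebpd WT libraries, and replicate 1 of cebpd WT is the lowest of its group. The T and NK list, not plotted, was separated likewise, while the B cell and the stem and progenitor lists overlapped. The lists were chosen with earlier results known, and how often other gene sets separate was not counted. The tubule set runs the other way, with overlap.

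slc7a7 departed from this pattern. Its level minus the pan-leukocyte mean was 0.99 ± 0.14 log2 units in cebpd KO kidneys and 2.11 ± 0.24 in cebpd WT kidneys, and 0.96 ± 0.26 in CEN KO kidneys and 1.47 ± 0.29 in CEN WT kidneys. The mutant libraries lay below the wild types in both pairs. The margin was narrow in the CEN pair, where the highest mutant was at 1.13 and the lowest wild type at 1.14. The pan-leukocyte mean itself was 6.85 ± 0.18 log2 CPM in cebpd KO and 6.38 ± 0.24 in cebpd WT kidneys. The cebpd difference in this ratio therefore also holds the higher level of that list. In the CEN pair the list was at 6.49 ± 0.13 in mutants and 6.62 ± 0.15 in wild types. The share of all genes with such a gap in this ratio was not counted. The genes nearest to lgals2a in pattern were eaf1, rgs18, a regulator of G protein signalling, and ppp2r3c, at 0.08, 0.11 and 0.13 log2 units. Those nearest to mpeg1.1 were slu7, alox5ap of the leukotriene pathway and dennd2da at 0.12, 0.12 and 0.13 log2 units, and those nearest to mfap4 were ppp1r14aa, def6a and clic3 at 0.22, 0.24 and 0.25 log2 units.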

How the data were processed

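Raw read counts per gene were deposited as 1 table for each of 12 RNA-seq libraries, 3 in each of 4 groups, and per the submitters' processing notes the reads were trimmed with Trim Galore 0.6.4, aligned to danRer10 with TopHat2 2.1.1 and counted with HTSeq. The sources used here do not say whether counting used strand or how it treated reads shared by gene copies. The 5 summary lines of each table stayed out of library sizes and tests; reads outside genes came to 32.1 to 38.5% and ambiguous reads to 1.32 to 3.99% of all lines' totals. Genes passing filterByExpr (minimum count 10; 11840 of 14781) were fitted with edgeR 4.0.16 in R 4.3.3 (TMM, quasi-likelihood, all 12 libraries and 4 groups, no covariate); CPM used the TMM-scaled library sizes, and the common biological coefficient of variation was 25.3%. Alternatives used other scalings, no filter, DESeq2 1.42.0, limma-voom 3.58.1, a replicate block, the libraries of a comparison alone, and each library left out in turn. Likeness of pattern was the root mean square difference of centred log2 CPM (prior count 2) over the 12 libraries. The fits were tested on simulated counts.

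The members and the gene lists were chosen with earlier results of these data known, and the pigment lists and the mean of both mutant effects were added later. The members, their direct relatives by role, any listed gene past the threshold in a mutant comparison or else the 2 of lowest p in each, and the 3 genes nearest to each member were eligible to be named; those without a bearing on a result were left out. Symbols were matched to a RefSeq table of another assembly for other names and chromosomes only. A motif search in promoters was planned and not run, since no promoter sequence was used here.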

Additional observations from a re-analysis of the deposited data

Results flagged for a closer look

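Among all genes named in the report or standing behind its lists, 2 had mutant effects that differed between the cebpd and CEN experiments by the test of the difference itself, and neither is one of the 8 macrophage genes. ggt1a, a gamma-glutamyltransferase gene of the proximal tubule list, had 392, 315 and 269 CPM in cebpd KO kidneys, against 660, 721 and 594 CPM in cebpd WT kidneys. It had 130, 148 and 198 CPM in CEN KO kidneys, against 73.3, 75.6 and 44.4 CPM in CEN WT kidneys. It lay lower in cebpd KO and higher in CEN KO, and the difference of the effects was -2.32 log2 units (edgeR, adjusted p = 0.0244). The difference for cebpd itself was -3.42 log2 units (adjusted p = 0.0244); its values in each library stand in the report as the check on the labels.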

How the results depend on the processing

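The median of the 8 genes stayed positive in the cebpd pair under all alternatives (0.30 to 0.58 with each library left out in turn) and changed sign in the CEN pair (-0.22 to 0.06). Counts of genes passing over the whole table were 10 (cebpd pair), 1 (CEN pair), 5 (difference of the effects), 2961 (CEN WT against cebpd WT) and 7 (mean of the effects). DESeq2 gave 410, 137 and 344 for the first 3 and 177 for the mean; limma-voom gave 5 for the CEN pair and 8 for the difference; the libraries of the comparison alone gave 1 for the cebpd pair and 2 for the CEN pair. Leaving out 1 library gave 1 to 233, 1 to 7, 0 to 48, 1630 to 4013 and 2 to 21, with the highest counts, except that of the CEN pair, reached without replicate 3 of cebpd KO. The cause was not tested.

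With the replicate block the counts were 197, 11 and 129 for the cebpd pair, the CEN pair and the difference, and 29 for the mean; no call of the 8 genes changed in the mutant comparisons. Same-numbered libraries did not all deviate together (r across genes 0.302, -0.012 and 0.367 in the cebpd pair, and 0.195, -0.024 and 0.164 in the CEN pair), so the numbers were not taken as pairs.

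The difference of the slc7a7 effects, -0.00 log2 units, was 0.0049 with limma-voom and 0.0038 with the block, and ran from -0.11 to 0.15 with a library left out. Other signs that turned with a library left out were those of csf1ra in the cebpd pair (-0.0554 to 1.07), the CEN pair (-0.22 to 0.0670) and the mean (-0.0567 to 0.50). In the CEN pair so did mpeg1.1 (-0.0934 to 0.15), mfap4 (-0.32 to 0.35), c1qa (-0.39 to 0.0189), c1qb (-0.27 to 0.0328), c1qc (-0.25 to 0.0795) and lgals2a (-0.0196 to 0.24), and between the wild types mpeg1.1 (-0.10 to 0.18) and mfap4 (-0.0735 to 0.41). Of the values at the ends of these ranges 1 passed, that of csf1ra in the cebpd pair without replicate 3 of cebpd KO (1.07, adjusted p = 0.047 in edgeR). The lowest level of any of the 8 genes, 4.91 CPM, was above the 0.157 to 0.199 CPM of 3 counts.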
